A study of Mus musculus with 4 samples.

Results

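The mitochondrial genome of the mouse encodes 37 RNAs, and all 37 had a row among the 50600 genes of the table. They were taken as every row whose gene symbol starts with mt-, which gave 2 ribosomal RNAs (rRNAs), 13 messenger RNAs (mRNAs) and 22 transfer RNAs (tRNAs). RNA sequencing was done on primary colonic epithelial cells of C57BL/6 mice, in 2 libraries labelled Mettl14 wild type (WT) and 2 labelled Mettl14 knockout (KO). Mettl14 encodes a subunit of the nuclear enzyme complex that writes N6-methyladenosine into mRNA, and the comparison asked which transcripts differ when it is deleted. No treatment, age, Cre driver or pooling of animals is given in the sources used here, and a code that all 4 titles share is not explained there. Libraries were made from total RNA with oligo-dT beads, which pick RNAs by their poly(A) tails.

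Library totals ran from 22136440 to 24991060 counts. Levels are given in CPM, counts per 1000000 counts of a library after TMM scaling, which sets the libraries to a common level over most genes. Mettl14 itself stood at 11.6 and 8.66 CPM in WT and 3.99 and 3.93 CPM in KO, a log2 fold change of -1.36 (SE 0.22, edgeR adjusted p = 0.0504), just outside the threshold of 0.05. Each genotype held 1 male and 1 female library by Xist and Y-linked genes, so no group holds the same animal more than once. All 13 epithelial markers were tested and present, and edgeR called 1 lower, Aqp8 (log2 fold change -1.67), against 1.9% of all genes. Of the 13, 4 had positive and 9 negative log2 fold changes. Their summed level was lower in KO, at 10901 and 12116 CPM in WT against 8819 and 8350 CPM in KO. KO replicate 2 stood apart in fibroblast markers, with a summed 565 CPM against 52.6 to 75.9 in the other libraries, and in red cell markers, with 6675 CPM against 1351 to 2734.

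Mitochondrial DNA is a small circle transcribed on both strands into long precursor RNAs. Most of its mRNAs and both rRNAs are flanked by tRNAs, and cutting out the tRNAs releases the RNAs between them, which is known as tRNA punctuation. Most of the mRNAs then gain short poly(A) tails, which in several cases complete the stop codon. The rRNAs build the mitochondrial ribosome, and the mRNAs encode core subunits of the respiratory chain and of ATP synthase, on which colonocytes rely to burn fatty acids from the gut lumen.

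The stretches printed here hold the borders where the results change or hold along the genome. They were joined from the abutting transcripts of GENCODE release M21 (build GRCm38, plus strand), with a tRNA gene in capitals between the last and first 30 bases of its neighbours. The first lies between the rRNA genes (chrM:995-1123, mt-Tv, the valine tRNA) and the second between rRNA and mRNA (chrM:2646-2780, mt-Tl1, a leucine tRNA). The third (chrM:9361-9488) holds mt-Tg, the glycine tRNA, ahead of mt-Nd3. The last (chrM:7897-7999) has no tRNA, and its capitals mark the 43 bases that mt-Atp8 and mt-Atp6 share.
mt-Rnr1 to mt-Rnr2: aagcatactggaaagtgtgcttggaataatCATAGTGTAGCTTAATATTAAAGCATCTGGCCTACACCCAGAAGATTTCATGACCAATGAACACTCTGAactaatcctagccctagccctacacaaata
mt-Rnr2 to mt-Nd1: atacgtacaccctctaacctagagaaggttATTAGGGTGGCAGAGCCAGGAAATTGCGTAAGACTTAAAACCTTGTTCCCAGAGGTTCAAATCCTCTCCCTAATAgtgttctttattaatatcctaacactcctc
mt-Co3 to mt-Nd3: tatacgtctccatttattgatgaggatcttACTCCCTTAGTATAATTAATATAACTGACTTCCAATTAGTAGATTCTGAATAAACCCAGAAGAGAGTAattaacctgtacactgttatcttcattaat
mt-Atp8 to mt-Atp6: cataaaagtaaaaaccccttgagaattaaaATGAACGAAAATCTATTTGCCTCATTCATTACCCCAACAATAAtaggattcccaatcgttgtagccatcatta

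In these libraries, both mitochondrial rRNAs fell in KO, each by more than 3-fold, while no mitochondrial mRNA passed the test. The counts are of RNA that oligo-dT beads picked, so the total level of the rRNAs was not measured. The RNA of the small ribosomal subunit, mt-Rnr1 (chromosome M, 70 to 1024), stood at 7096 and 6848 CPM in the WT libraries and at 2598 and 1792 CPM in the KO libraries. Every KO value lay under every WT value, and the WT pair was nearly equal. Its log2 fold change was -1.67 (SE 0.26), a 3.18-fold lower level, with an edgeR adjusted p of 0.0472. The RNA of the large subunit, mt-Rnr2 (chromosome M, 1094 to 2675), stood at 12918 and 12736 CPM in WT and at 4259.8 and 3623 CPM in KO. Its log2 fold change was -1.70 (SE 0.21), a 3.25-fold lower level, with an edgeR adjusted p of 0.0434. Over all 14861 genes tested, 3.61% were called, 1.9% lower and 1.72% higher.

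Fitted without KO replicate 1, the rRNAs had log2 fold changes of -1.97 and -1.84 (edgeR adjusted p = 0.29 and 0.293), and without KO replicate 2, -1.40 and -1.57 (edgeR adjusted p = 0.378 for both). Those fits assume that the 1 KO library left varies like the WT libraries. In them edgeR called 0 genes of the whole table, with 2257 and 1987 at an unadjusted p under 0.05. mt-Rnr1 also moved just past the threshold with relative log expression factors (edgeR adjusted p = 0.0514) and with the legacy (0.0501) or robust (0.0514) option off. DESeq2, the other count test run, gave adjusted p of 5.37e-10 and 3.01e-20.

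**Figure D1:**
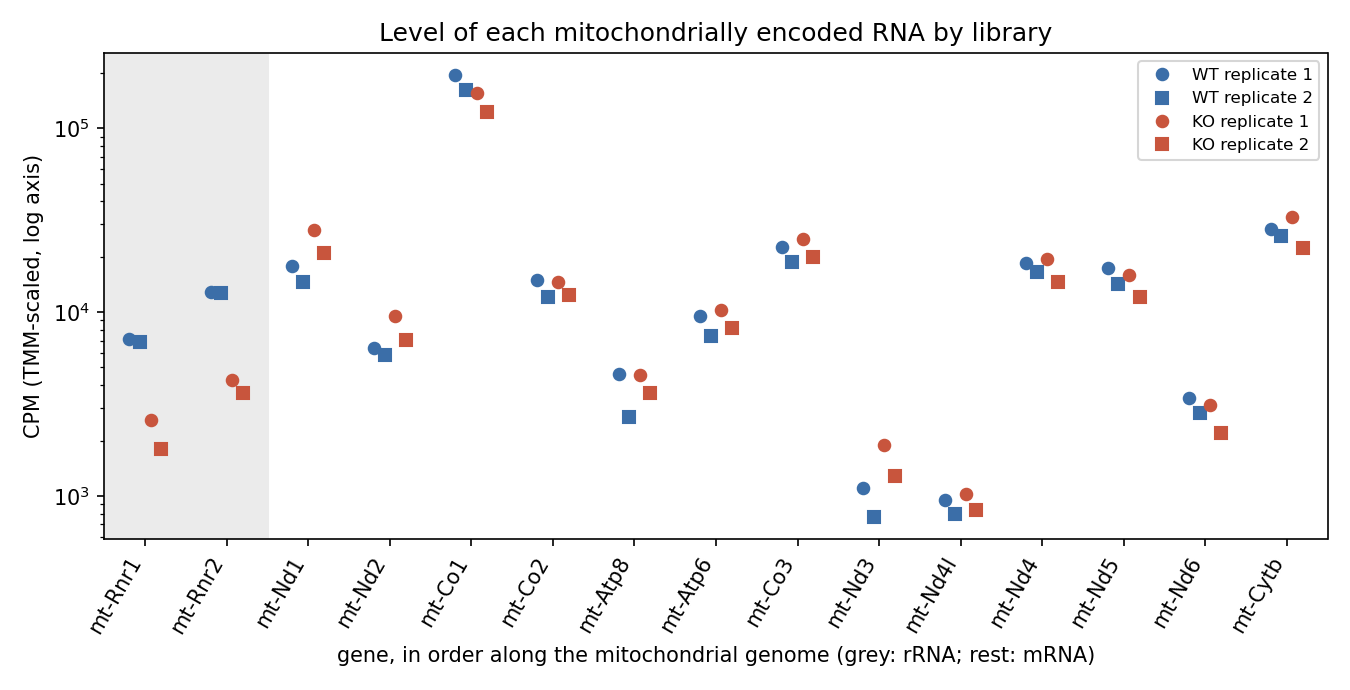
Level in CPM (log axis) of each mitochondrially encoded RNA with counts, in genome order, with 1 point per library (WT blue, KO red). Both rRNAs lie well lower in both KO libraries, while mt-Nd1, mt-Nd2 and mt-Nd3 lie higher in both and most other mRNAs overlap.

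As a class, the rRNAs summed to 20014 and 19584 CPM in WT and to 6857 and 5415 CPM in KO. They took 5.56% and 6.46% of all mitochondrial counts in WT and 2.08% and 2.14% in KO. The classes were compared with an exact permutation test over libraries (two-sided), where 2 against 2 cannot go below p = 0.333, the value that both rRNA measures gave. The mRNAs summed to 340247 and 283378 CPM in WT and to 322164 and 248052 CPM in KO, and the groups overlapped (exact permutation p = 0.667). Their mean was 0.914 times the WT mean, and 1.02 times when scaled by library size alone. Each rRNA count was matched by 17.0 and 14.5 mRNA counts in WT and by 47.0 and 45.8 in KO. All mitochondrial counts together took 33.8% and 28.8% of a WT library and 32.7% and 28.6% of a KO library. In CPM they stood at 360261 and 302962 in WT and 329021 and 253467 in KO, with a KO mean 0.878 times the WT mean. The groups overlapped on both scales. Of all counts of a library, the rRNAs took 1.88% and 1.86% in WT and 0.681% and 0.611% in KO. With the counts of nuclear copies of mitochondrial DNA added, described further on, all mitochondrial counts took 45.2% and 38.6% of a WT library. In KO they then took 44.2% and 38.8%.

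The 2 groups also differed in other ways whose part in the rRNA result was not tested. In a bulk sample, fewer cells of a type and less RNA per cell cannot be told apart. All 10 macrophage and monocyte markers had positive log2 fold changes. Of these, edgeR called 3 higher (Cx3cr1, C1qa and Itgam), where it called 1.72% of all genes higher. The summed levels of the 10 were 73.6 and 104 CPM in WT and 182 and 170 CPM in KO. DESeq2 and edgeR with sex as a covariate each called 6 of these 10 higher, and each called 3 of the 13 epithelial markers lower (DESeq2 also 1 higher), where they called 13.7% and 9.48% of all genes. Summed levels in KO were also above WT for T and NK cells (51.3 to 55.2 against 56.8 to 64.1 CPM), smooth muscle (6.93 to 9.17 against 10.9 to 24.3), endothelium (4.91 to 6.98 against 7.63 to 10.3) and enteric glia and neurons (0.578 to 0.757 against 0.93 to 1.56). The T and NK markers did not move as a set, since 4 of the 8 had positive and 4 negative log2 fold changes. The groups overlapped for B and plasma cells (9.53 to 31.2 over all libraries), neutrophils (40.6 to 147), fibroblasts and red cells. No marker was at 0 in all libraries. The row Gm42418, which overlaps the repeat of nuclear ribosomal DNA and was picked with its values known, had 48.2 and 42.1 CPM in WT against 58.4 and 61.6 CPM in KO (edgeR adjusted p = 0.0958). AY036118, the other row at that repeat, overlapped, with 82.1 and 43.4 CPM in WT against 40.4 and 72.1 CPM in KO (log2 fold change -0.16).

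The mRNAs for the NADH dehydrogenase, complex I of the chain, split by gene. Its subunit gene mt-Nd1 (chromosome M, 2751 to 3707) lies next to the rRNAs and stood at 17713 and 14667 CPM in WT and 27973 and 20925 CPM in KO. Both KO libraries were above both WT libraries, with a log2 fold change of 0.59 (SE 0.26, edgeR adjusted p = 0.207). mt-Nd2 (3914 to 4951) stood at 6362 and 5823 CPM in WT and 9545 and 7016 CPM in KO (log2 fold change 0.44, SE 0.24, edgeR adjusted p = 0.275), again without overlap. mt-Nd3 (9459 to 9806) stood at 1110.1 and 769 CPM in WT and 1884 and 1285 CPM in KO (log2 fold change 0.75, SE 0.29, edgeR adjusted p = 0.167), also without overlap. None of these passed the edgeR test, and DESeq2, which called 13.7% of its 13996 genes, called mt-Nd1 (adjusted p = 0.0469) and mt-Nd3 (0.0459) higher.

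The other complex I mRNAs overlapped between the groups. mt-Nd4l was at 953 and 802 CPM in WT and 1030.4 and 837 CPM in KO (log2 fold change 0.09), and mt-Nd4 at 18573 and 16470.0 CPM in WT and 19517 and 14495 CPM in KO (-0.04). mt-Nd5 was at 17360.4 and 14179 CPM in WT and 15931 and 12023 CPM in KO (-0.17). mt-Nd6, the only mRNA on the minus strand, was at 3420 and 2832 CPM in WT and 3126 and 2205 CPM in KO (-0.23). For these 4 the value in KO replicate 2 was the lowest or next to lowest, and the signs of mt-Nd4, mt-Nd5 and mt-Nd6 turned in fits without that library.

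In complex III the mitochondrial genome supplies the cytochrome b mRNA mt-Cytb, at 28473 and 25853 CPM in WT and 33103 and 22397 CPM in KO. Its KO libraries lay on either side of the WT pair (log2 fold change 0.03, SE 0.28). In cytochrome c oxidase, complex IV, mt-Co1 (5328 to 6872) was the most abundant RNA of the genome. It stood at 194540.4 and 160925 CPM in WT and at 155695 and 122772 CPM in KO. Both KO values were under both WT values, though KO replicate 1 and WT replicate 2 were close (log2 fold change -0.35, SE 0.29, edgeR adjusted p = 0.453). Its partners overlapped between the groups, with mt-Co2 at 14980.2 and 12122 CPM in WT and 14658 and 12334 CPM in KO, and mt-Co3 at 22578 and 18814 CPM in WT and 24928 and 19884 CPM in KO. Their log2 fold changes were -0.01, a sign that turned with most other scalings, and 0.11.

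For ATP synthase, mt-Atp8 was at 4625 and 2693 CPM in WT and 4571 and 3637 CPM in KO (log2 fold change 0.17), with WT replicate 2 the lowest library. mt-Atp6 was at 9561 and 7428 CPM in WT and 10201 and 8241 CPM in KO (0.12). These genes overlap on the same strand, so reads within their shared 43 bases belong to both. On the CPM scale, 3 mRNAs were higher in KO without overlap, 1 was lower without overlap and 9 overlapped. Over all genes tested, 31.1% were higher and 32.2% lower without overlap, so such a separation is common in these 4 libraries. The median log2 fold change was 0.09 over the 13 mRNAs and -0.01 over all genes. By edgeR, 0 of 13 mRNAs were called and 0 had an unadjusted p under 0.05, against 30.5% of all genes. DESeq2 called 2, against 13.7% of all genes, and limma-voom 0, against 3.92%.

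**Figure D2:**
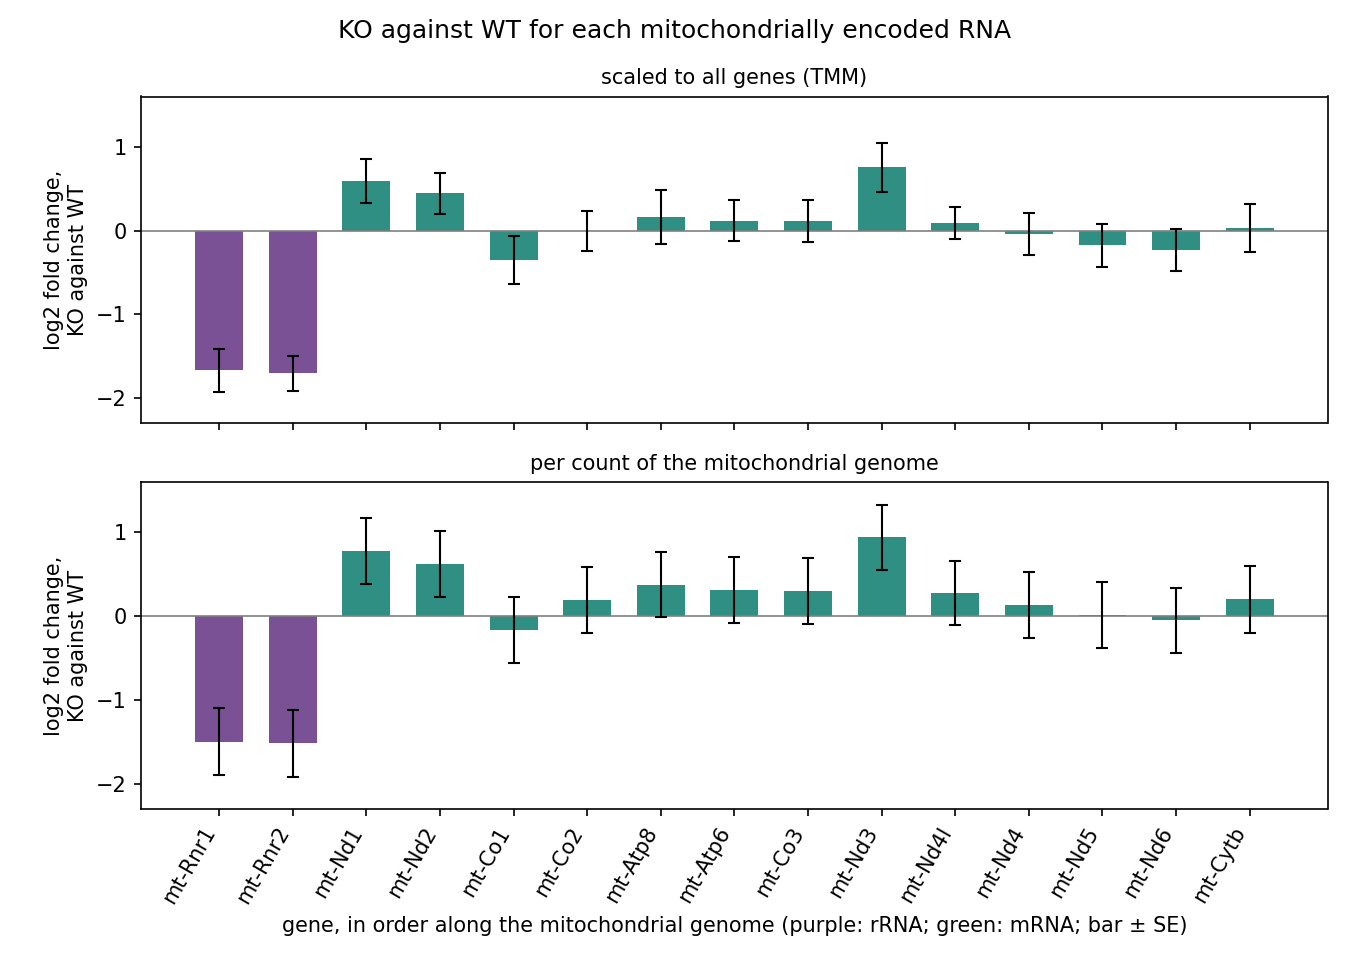
Log2 fold change of KO against WT (bars, with SE as error bars) for each mitochondrially encoded RNA in genome order, scaled to all genes (top) and per count of the mitochondrial genome (bottom). The rRNAs stand at -1.67 and -1.70 in the top panel, and mt-Nd1, mt-Nd2 and mt-Nd3 are the highest bars in both panels.

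The same comparison was made within the mitochondrial transcriptome, with each RNA as a share of all mitochondrial counts, which removes any difference in the total. The shares add to 100%, so a lower share of one RNA raises the others. mt-Rnr1 fell from 1.97% and 2.26% in WT to 0.789% and 0.707% in KO, and mt-Rnr2 from 3.59% and 4.2% to 1.29% and 1.43%. Their log2 fold changes were -1.50 (SE 0.40, edgeR adjusted p = 0.00499) and -1.52 (SE 0.40, edgeR adjusted p = 0.00477), where 7.93% of all genes were called, 1.56% lower and 6.37% higher. These calls ended without KO replicate 1 (edgeR adjusted p = 0.138 and 0.175), without KO replicate 2 (0.343 and 0.252) and with sex as a covariate (0.27 and 0.295).

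mt-Nd1 took 4.92% and 4.84% of mitochondrial counts in WT and 8.5% and 8.26% in KO, a difference far wider than that within either pair. mt-Nd2 took 1.77% and 1.92% in WT and 2.9% and 2.77% in KO, and mt-Nd3 0.308% and 0.254% in WT and 0.573% and 0.507% in KO. Their log2 fold changes per mitochondrial count were 0.78, 0.62 and 0.94, with SEs of 0.40, 0.39 and 0.39 and edgeR adjusted p of 0.254, 0.412 and 0.12. The error in this fit is drawn towards a trend over all genes, most of them nuclear. mt-Co1 took 54.0% and 53.1% in WT and 47.3% and 48.4% in KO (log2 fold change -0.16, SE 0.39, edgeR adjusted p = 0.899). mt-Co3 took 6.27% and 6.21% in WT and 7.58% and 7.84% in KO. These shares leave out the nuclear copies. With the counts of copies added, mt-Co1 took 47.1% and 46.1% in WT and 40.0% and 40.9% in KO. On that scale mt-Co3 took 10.1% and 10.3% in WT and 12.4% and 12.7% in KO. mt-Nd1 then took 3.68% and 3.62% in WT and 6.28% and 6.08% in KO. mt-Cytb took 7.9% and 8.53% in WT and 10.1% and 8.84% in KO. mt-Nd5 (4.68% to 4.84% over all libraries) and mt-Nd6 (0.87% to 0.95%) overlapped between the groups. In all, 10 of the 13 mRNAs had a higher share in both KO libraries, against 35.2% of all genes tested on this scale, and 1, mt-Co1, had a lower share in both, against 13.1%.

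Ratios of neighbouring RNAs need no scaling factor and place the differences along the genome. The tRNAs had no counts, so each RNA was compared with the next one that had. The annotated genes mt-Atp8 and mt-Atp6 share 43 bases, and mt-Nd4l and mt-Nd4 share 7, with no tRNA gene between. The ratios within these pairs need not compare separate RNAs. Across mt-Tv, the ratio of mt-Rnr2 to mt-Rnr1 was 1.82 and 1.86 in WT and in KO 1.64 and 2.02. The groups thus overlapped in the ratio of the rRNAs, with a KO minus WT difference in log2 ratio of -0.02 (pooled SD 0.15). Across mt-Tl1, the ratio of mt-Nd1 to mt-Rnr2 was 1.37 and 1.15 in WT and 6.57 and 5.78 in KO. That was the widest step between any neighbours, a difference in log2 ratio of 2.29 against a pooled SD of 0.16.

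The next step, from mt-Nd1 to mt-Nd2 across the isoleucine, glutamine and methionine tRNAs, was small, where WT had ratios of 0.359 and 0.397 and KO of 0.341 and 0.335. From mt-Nd2 to mt-Co1, across 5 tRNA genes, the ratio was 30.6 and 27.6 in WT and 16.3 and 17.5 in KO (log2 difference -0.78, pooled SD 0.09). From mt-Co1 to mt-Co2 it was 0.077 and 0.0753 in WT against 0.0941 and 0.1 in KO (log2 difference 0.35, pooled SD 0.05). With the counts of nuclear copies added, that ratio was 0.230 and 0.232 in WT against 0.280 and 0.283 in KO (log2 difference 0.29). The mRNAs from mt-Co2 through mt-Atp8 and mt-Atp6 to mt-Co3 kept their ratios within overlapping ranges, with log2 differences of 0.21, -0.09 and -0.01. With the counts of nuclear copies added, described further on, the KO ratios lay above WT without overlap for mt-Atp8 to mt-Co2 (log2 difference 0.30) and for mt-Co3 to mt-Atp6 (0.08, a turned sign), while mt-Atp6 to mt-Atp8 still overlapped (-0.16). Across mt-Tg, the ratio of mt-Nd3 to mt-Co3 was 0.0492 and 0.0409 in WT and 0.0756 and 0.0646 in KO (log2 difference 0.64, pooled SD 0.17). From mt-Nd3 to mt-Nd4l it was 0.858 and 1.04 in WT and 0.547 and 0.651 in KO (-0.66, pooled SD 0.19), so mt-Nd3 differed from both of its neighbours.

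Downstream of mt-Nd4l the log2 differences were between -0.14 and 0.25. The mRNAs on opposite strands, mt-Nd5 and mt-Nd6, overlap by 14 bases and had ratios of 0.197 and 0.2 in WT, and in KO of 0.196 and 0.183. From mt-Nd6 to mt-Cytb the ratio was 8.33 and 9.13 in WT, while KO had 10.6 and 10.2. The files do not say whether counting used the strand, so reads from either strand of these genes cannot be told apart. The ratios carry no test.

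**Figure D3:**
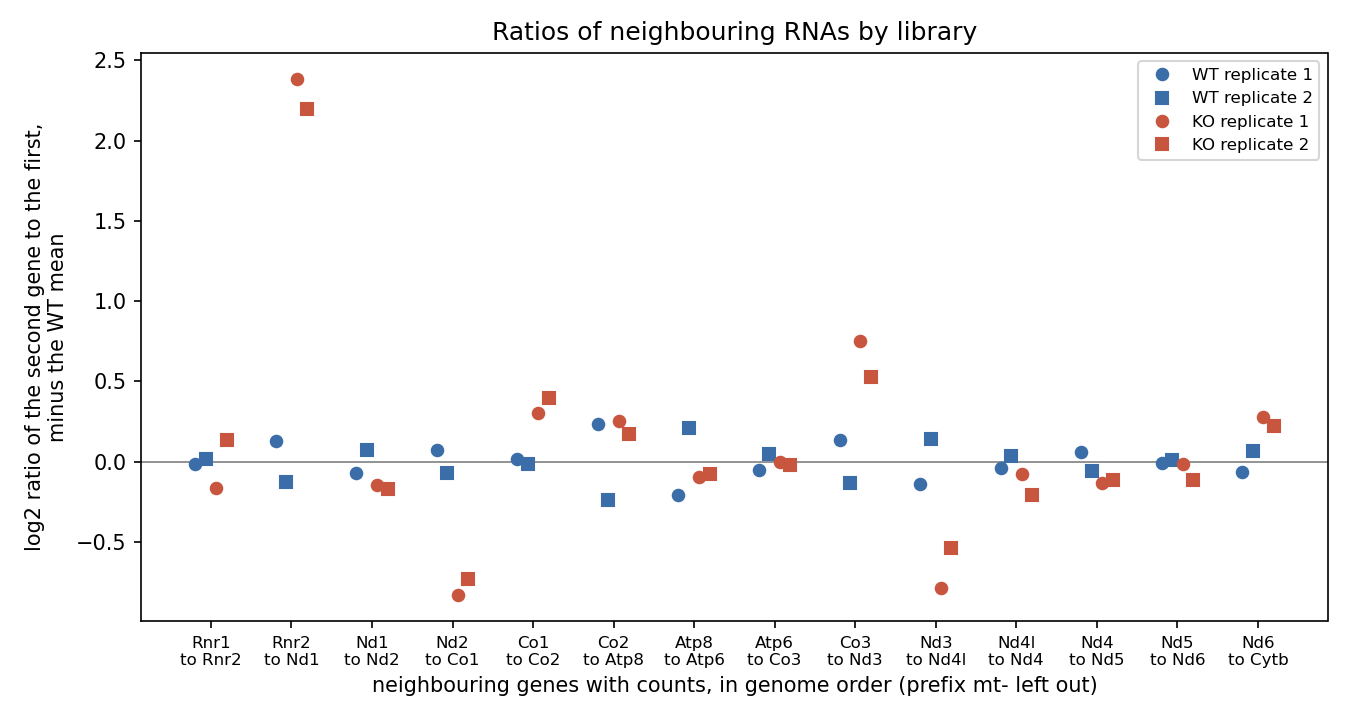
Log2 ratio of each RNA to the one before it along the mitochondrial genome, minus the mean of the WT libraries, with 1 point per library (WT blue, KO red). The KO libraries lie more than 2 log2 units above WT between mt-Rnr2 and mt-Nd1, and within 1 unit of the WT mean for the other pairs.

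For 6 mRNAs the table divided the counts with nuclear copies of mitochondrial DNA, which are fossil insertions of the genome into chromosomes. By sequence, 11 nuclear genes matched a mitochondrial gene at 95% identity or more over at least 50% of their transcript length, and 8 of these had a mean of at least 100 counts. A block on chromosome 1 (GRCm38) held copies of genes from mt-Co1 to mt-Nd4. In it Gm28661 (24614885 to 24615565) was identical to mt-Co2 over 681 bases, and the table put 69.0% to 72.0% of their joint counts on the copy. Gm10925 was identical to mt-Atp6 over 678 bases and took 69.7% to 72.8%. Gm28437, identical to mt-Co3 over 783 bases, took 53.6% to 54.8%. Gm10222, identical to mt-Nd4l over 294 bases, took 61.9% to 66.4%. Gm28438 matched mt-Nd3 at 99.71% and took 42.1% to 54.7%, the highest share in WT replicate 2. Gm29216 matched the last 483 bases of mt-Co1 at 99.79%, and together with Gm13340 of chromosome 2 (97.61% over 1545 bases) it took 12.7% to 14.2%. Gm28439 was identical to mt-Nd4 over 876 bases and yet took 0.273% to 0.366%, so the table split identical sequence very unequally. Reads from identical sequence cannot be told apart.

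Among the copies, Gm29216 stood at 32182 and 26125 CPM in WT and 22575 and 17899 CPM in KO, without overlap (log2 fold change -0.53, edgeR adjusted p = 0.239). Gm28438 was at 807 and 928 CPM in WT and 1505 and 1092 CPM in KO (0.58, edgeR adjusted p = 0.163), also without overlap. So was Gm13340, lower in KO, at 47.6 and 37.7 CPM in WT and 37.2 and 27.2 CPM in KO (-0.40, edgeR adjusted p = 0.255). Over all genes tested, 31.1% were higher and 32.2% lower without overlap. The other named copies overlapped, with log2 fold changes from -0.13 (Gm28661) to 0.15 (Gm28437). With the counts of copies added to their mitochondrial gene, the log2 fold change was -0.38 for mt-Co1, -0.09 for mt-Co2, 0.06 for mt-Atp6, 0.13 for mt-Co3, 0.67 for mt-Nd3 and 0.06 for mt-Nd4l, and 0 of the 13 mRNAs were called by edgeR. The rRNAs, mt-Nd1, mt-Atp8, mt-Cytb and mt-Nd6 had no such copy among annotated transcripts. Sequence outside annotated transcripts was not searched, so unannotated copies of these genes could not be found. The copies of mt-Nd2 and mt-Nd5 held at most 7 counts in a library.

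**Figure D4:**
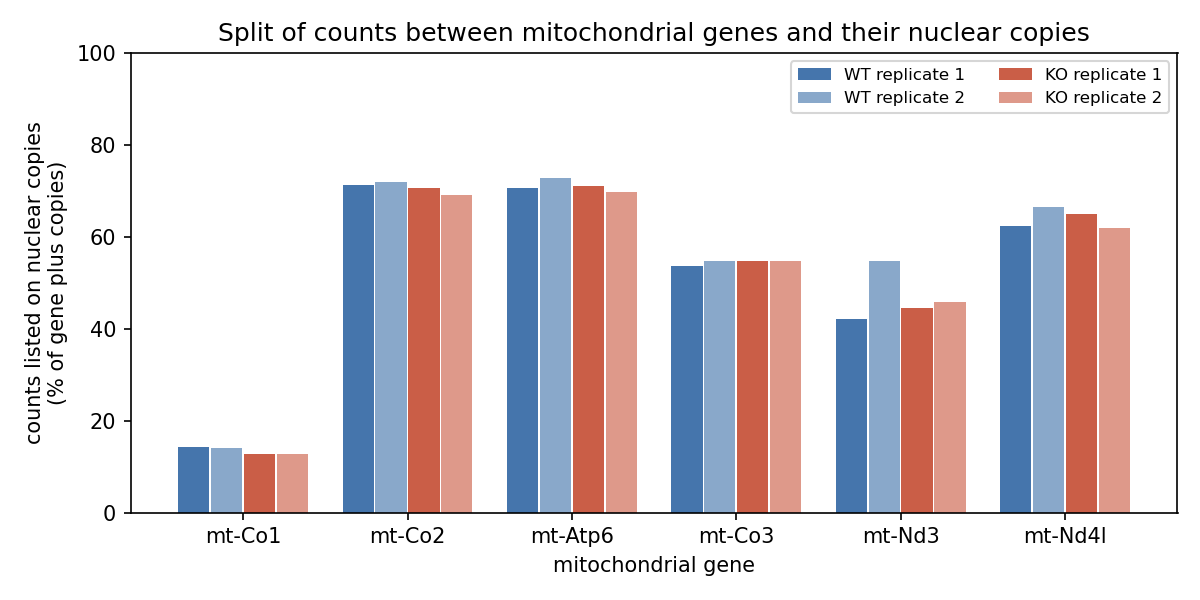
Percent of the joint counts of a mitochondrial gene and its nuclear copies that the table lists on the copies, with 1 bar per library (WT blue, KO red). The copies hold over 40% of the counts for all shown genes but mt-Co1, with much the same split in WT and KO apart from mt-Nd3 in WT replicate 2.

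With the copies added, levels were compared between genes as CPM per kilobase of gene. On this scale mt-Co1 led, with 133937 ± 18163 in WT and 103238 ± 17229 in KO (SD, n = 2). It was followed in both groups by mt-Co2 (69877 ± 9227 and 65612 ± 10430, SD), mt-Co3 (57559 ± 6281 and 63192 ± 10180.3) and mt-Atp6 (44017 ± 5469 and 45790 ± 8204). mt-Co2 lay above mt-Co3 within each of the 4 libraries, by less in KO (72987 against 70391 and 58237 against 55993) than in WT (76402 against 62000.0 and 63353 against 53118). By group means, mt-Nd1 went from the seventh place in WT (16917 ± 2251) to the fifth in KO (25548 ± 5212). It lay under mt-Atp8 in WT replicate 1 (18509 against 22671) and above it in WT replicate 2 (15326 against 13199). In KO mt-Nd1 lay above mt-Cytb (24257 ± 6621) within both libraries, though by little in KO replicate 1 (29233 against 28939). The rRNAs, at 7300.3 ± 184 and 8108 ± 81.5 CPM per kilobase, held places 12 and 11 of 15 in WT by group means. Within WT replicate 2, mt-Rnr2 (8051) lay above mt-Nd4l (8048) and mt-Nd5 (7774). In KO the rRNAs were the last 2, with mt-Rnr1 at 2298 ± 597 and mt-Rnr2 at 2491 ± 285, and their order differed between the KO libraries. These levels are those of libraries selected for poly(A) tails.

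As annotated, 3 of the 13 mRNAs (mt-Co3, mt-Nd4 and mt-Cytb) end in a single T, an incomplete stop codon that the poly(A) tail completes. Their log2 fold changes on the CPM scale ran from -0.04 to 0.11. The 10 annotated with a full stop codon ran from -0.35 to 0.75. Of these, mt-Nd1 (0.59) and mt-Nd2 (0.44) share their last 2 bases with a tRNA gene on the same strand. Where that tRNA is cut out, their stop codon would be incomplete too. mt-Atp6 (0.12) shares its last base with mt-Co3 on the same strand. A cut ahead of mt-Co3 would leave the stop codon of mt-Atp6 incomplete as well. The sets are thus not cleanly separated. Across the 13 mRNAs, which share libraries and precursors, Spearman's rho of the log2 fold change was -0.47 with length, -0.32 with GC content and -0.43 with position along the genome, given as descriptions of these points.

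All 22 tRNA genes were listed at 0 in every library. They are 59 to 75 bases long, and 8 of them lie on the minus strand. The table also listed 0 in every library for all of the 1002 other genes whose longest transcript is at most 75 bases, and 1.06% of the 4791 genes of 76 to 150 bases had any count. The shortest mitochondrial gene with counts was mt-Atp8, of 204 bases, and the zeros of the tRNAs are not read as a level in either group. By counting error alone, taken as 3 counts, a 0 allows 0.117 to 0.144 CPM per gene, depending on the library.

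Nuclear genes that make, process and use mitochondrial RNA were taken from 5 lists, with 2 edgeR calls in all, both higher. Over all genes tested, edgeR called 3.61%, with 1.72% higher, so these calls are not read as results about the lists. Counts at an unadjusted p are to be set against 30.5% of all genes, and those of DESeq2 against 13.7%. Of 16 tested genes for transcription and upkeep of the DNA, 0 were called by edgeR or limma-voom and DESeq2 called 1 lower. With no adjustment, edgeR gave 0 higher and 2 lower at p under 0.05. Their median log2 fold change was -0.26. Tfam, which packs the DNA and starts its transcription, was at 20.9 and 16.2 CPM in WT and 20.7 and 22.3 CPM in KO (0.21), and the DNA polymerase gene Polg at 39.0 and 37.6 CPM in WT and 32.9 and 39.6 CPM in KO (-0.08). The 2 most abundant of this list by WT level were Polg and Tk2 (22.1 and 15.2 CPM in WT, 11.2 and 12.4 CPM in KO, -0.66, edgeR adjusted p = 0.13), a kinase that supplies nucleotides for the DNA.

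Of 21 genes for processing, stability and decay of the RNA, edgeR and limma-voom called 0 and DESeq2 called 1 higher, and edgeR without adjustment gave 5 higher and 1 lower at p under 0.05 (median log2 fold change 0.11). The most abundant by WT level were Fastk (46.7 and 45.0 CPM in WT, 38.8 and 37.5 CPM in KO, -0.26) and Angel2 (42.9 and 42.9 CPM in WT, 37.4 and 44.1 CPM in KO, -0.07). Lrpprc, which stabilises mitochondrial mRNAs, was at 38.0 and 28.8 CPM in WT and 43.3 and 41.9 CPM in KO (0.35, edgeR adjusted p = 0.211). Of 25 genes that modify mitochondrial tRNA and rRNA, edgeR and limma-voom called 0 and DESeq2 called 3 higher, and edgeR without adjustment gave 4 higher and 1 lower at p under 0.05 (median 0.21). Its most abundant members by WT level were the tRNA methyltransferase Nsun2 (0.23) and Yrdc (0.21), which acts in the synthesis of a modified adenosine of tRNA.

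Of 22 genes for mitochondrial aminoacyl-tRNA synthetases and partners, 1 rose by edgeR, which called 1.72% of all genes higher. Ears2, which charges the glutamate tRNA, was at 5.01 and 4.88 CPM in WT and 10.2 and 12.1 CPM in KO (log2 fold change 1.18, SE 0.18, edgeR adjusted p = 0.0469), and the list's median was 0.12. Of 38 assembly factors for the complexes that hold mitochondrially encoded subunits, 1 rose. Ndufaf4, a factor for complex I, was at 9.58 and 10.7 CPM in WT and 24.1 and 26.4 CPM in KO (log2 fold change 1.32, SE 0.13, edgeR adjusted p = 0.0434), and the list's median was 0.09. The calls of Ears2 and Ndufaf4 ended without either KO library, where edgeR called 0 genes in all.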

How the data were processed

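RNA of primary colonic epithelial cells was sequenced in 2 WT and 2 Mettl14 KO libraries. Tools and build, per the submitters' processing notes and without roles, were STAR 2.4.2a, RSEM 1.2.29, FastQC 0.11.2 and mm10. The authors deposited raw counts, whole numbers for each gene with totals that differ between libraries. The sources used here give no annotation release, strandedness or rounding. Replicates were numbered in accession order and pair no libraries.

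Annotation and transcript sequences are from GENCODE M21 (GRCm38, the assembly of mm10), and coordinates are 1-based. Nuclear copies were sought among annotated transcripts only, with blastn 2.17.0 (at least 95% identity over at least 50% of the transcript). Genes were kept with filterByExpr, scaled with TMM and tested with edgeR 4.0.16 (R 4.3.3), using the quasi-likelihood F-test (legacy and robust on, two-sided) with Benjamini-Hochberg adjustment over all genes at 0.05. SE is the log2 fold change over the square root of F. For shares, the library size was set to the mitochondrial total. Neighbour ratios used counts plus 0.5 and at least 10 counts. The test was checked on simulated data.

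The smallest nonzero count of a mitochondrial RNA was 18282, a counting error of 0.74%. Alternatives were other factors and filters, DESeq2 1.42.0, limma-voom (limma 3.58.1), edgeR options, sex, copies added and each library left out. Named were all rRNAs and mRNAs, tRNAs with a mean of at least 10 counts, copies with at least 100, up to 4 called genes per list and direction or its 2 most abundant members by WT level, and Mettl14; Tfam, Lrpprc and Gm42418 were chosen after their values were seen. Members and lists were chosen with earlier results of these data known. P-values cover no more than the spread of these 4 samples, and limits cover counting error only.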

Additional observations from a re-analysis of the deposited data

How the results depend on the processing

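The lower mt-Rnr1 and mt-Rnr2 kept their sign under every alternative run, with log2 fold changes of -1.97 to -1.40 and -1.84 to -1.54 on all counts. The number of mitochondrial genes called lower, 2, was 1 with relative log expression factors, legacy off or robust off, and 0 to 2 with 1 library left out. The number called higher, 0, became 2 with DESeq2. Per mitochondrial count, the 2 called lower became 0 with sex as a covariate, an alternative chosen after the data were seen, and were 0 to 2 with 1 library left out. The class ratios (log2) with 1 library left out were -1.87 to -1.53 for rRNA CPM, -1.61 to -1.40 for the rRNA share and 0.052 to 0.066 for the mRNA share, which was 0.044 with copies added.

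Signs of mRNAs near 0 turned. mt-Co2 was at 0.0068 with relative log expression factors, 0.0068 with DESeq2, 0.15 with library size, 0.063 with upper quartile, 0.024 with nuclear TMM, 0.021 with no filter and 1.86e-04 with the CPM filter. mt-Nd4 was at 0.11 with library size and 0.026 with upper quartile. With 1 library left out, values ran from -0.15 to 0.15 (mt-Co2), -0.29 to 0.18 (mt-Nd4), -0.40 to 0.037 (mt-Nd5), -0.52 to 0.022 (mt-Nd6), -0.29 to 0.31 (mt-Cytb). For the others they ran from -0.14 to 0.60 (mt-Atp8), -0.055 to 0.30 (mt-Atp6), -0.070 to 0.29 (mt-Co3), -0.080 to 0.25 (mt-Nd4l). Per mitochondrial count, mt-Nd5 was at -0.0074 with copies added and -0.046 per mRNA count. With 1 library left out it ran from -0.0079 to 0.034, and mt-Nd6 from -0.11 to 0.013. The cause was not tested.

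Among lists, DESeq2, which called 13.7% of all genes, called 1 lower for DNA upkeep, 1 higher for RNA processing, 3 higher for modification, and 2 higher and 1 lower for synthetases. Sex as a covariate (9.48% of all genes called) gave 1 higher for processing, 1 higher for modification and 1 lower for synthetases, and library size 1 higher for processing. With 1 library left out, calls were 0 to 1 lower (upkeep), 0 to 1 higher (processing), 0 to 2 higher and 0 to 2 lower (synthetases) and 0 to 2 higher (assembly). Totals of mRNA and of everything but rRNA were the same, as tRNAs were at 0. No paired analysis was possible because the replicate numbers only follow the order of the samples, so the labels pair nothing. Sex, read from the data, matches 1 library of each genotype with 1 of the other, and as a covariate it kept both rRNA calls on all counts (edgeR adjusted p = 0.0342 for both) and ended both per mitochondrial count (0.27 and 0.295).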
